A study of Saccharomyces cerevisiae with 30 samples.

Results

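The 10 budding yeast genes described here, which act in ergosterol synthesis at the endoplasmic reticulum (ER) membrane (ERG1, ERG2, ERG3, ERG4, ERG5, ERG9, ERG11, ERG24, ERG25 and ERG28), were followed across ribosome profiling and RNA sequencing libraries of fractionated Saccharomyces cerevisiae. The genes were taken by name with earlier results of these data known, 10 of the 5904 open reading frames with counts. All 10 passed the filter on low counts in every fit. Shares over all genes, given below beside the counts of members, therefore describe the set and are no test of it. Ergosterol is the sterol of fungal membranes, the counterpart of cholesterol in animals, and most enzymes of its late synthesis sit in the ER membrane. Most ER membrane proteins are delivered there while they are made: the signal recognition particle (SRP), an RNA and protein complex that contains the subunit SRP72, binds ribosomes that expose a hydrophobic signal and takes them to the ER. Proteins whose only membrane segment lies at the very end of the chain, called tail-anchored, finish synthesis before that segment leaves the ribosome and are inserted afterwards.

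The footprints, ribosome-protected fragments that mark where ribosomes stood, came from BY4741 cells in which SRP72 carried a TAP tag at its own locus, the soluble fractions included. SRP72-bound polysomes were immunoprecipitated from the soluble fraction, membrane polysomes were pelleted, and soluble polysomes served as their reference, with 2 replicates of each and no drug. Single libraries came from a culture given 100 µg/mL cycloheximide (CHX), which arrests elongation, at harvest: membrane ribosomes, soluble ribosomes, SRP72-bound polysomes and soluble polysomes. mRNA was sequenced once per group: SRP72-bound, membrane and soluble RNA of the tagged BY4741 strain, from lysates incubated with puromycin, which releases nascent chains, or with CHX, and membrane and soluble RNA of the prt1-1 strain CY2522, whose mutation is in a subunit of translation initiation factor eIF3, and of W303, each at 37 °C for 1 h or at 25 °C. All cells grew in YPD medium to mid-log phase. Whether the replicates were separate cultures is not stated, and p-values then speak only of the variation among the libraries at hand, which may be technical.

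The 10 footprint libraries held 16.1 M to 34.7 M counts (M for mega) and the 14 mRNA libraries 3.14 M to 34.3 M. Counts of the 10 genes lay between 114 and 135486 in footprints and between 291 and 118193 in mRNA. Values below are CPM, counts scaled to a common library total, with TMM factors that correct for composition, so each level is relative within its library, and fewer transcripts in a fraction cannot be told apart from fewer per cell. In footprints without drug, the secretory markers KAR2, PDI1, SEC61, PMA1 and GAS1 were all higher than in soluble polysomes both on membranes (median log2 fold change 6.71) and in SRP72-bound polysomes (6.90), while none of 6 cytosolic markers was higher in either. Of 6 mitochondrial markers, 4 were higher on membranes, up to 2.62-fold for ACO1, and 1 in SRP72-bound polysomes.

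The genes were distributed over 6 chromosomes. In the R64 assembly, whose UCSC name sacCer3 is given in the submitters' notes, ERG9 (YHR190W, squalene synthase) lies at chromosome VIII 484845 to 486179 and ERG11 (YHR007C, lanosterol demethylase, a cytochrome P450) at chromosome VIII 120091 to 121683. On chromosome VII are ERG1 (YGR175C, squalene epoxidase), at 846933 to 848423, ERG25 (YGR060W, the sterol methyl oxidase), at 610564 to 611493, and ERG4 (YGL012W, the reductase of the last step), at 472855 to 474276. Chromosome XIII holds ERG2 (YMR202W, the sterol isomerase), at 667537 to 668205, and ERG5 (YMR015C, a desaturase and the other cytochrome P450), at 300869 to 302485. The remaining members are ERG24 (YNL280C, a sterol reductase) at chromosome XIV 109095 to 110411, ERG3 (YLR056W, a desaturase) at chromosome XII 253861 to 254958, and ERG28 (YER044C, a scaffold that holds demethylation enzymes together) at chromosome V 237570 to 238016. Each interval is 1 coding sequence, and none overlaps another annotated gene.

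The signals of these proteins differed in kind and position. The authors' deposited table classes ERG2, ERG4, ERG11, ERG24 and ERG28 as proteins with a transmembrane domain (TMD) and places the first one at codon 5 of 222, 40 of 473, 29 of 530, 12 of 438 and 24 of 148. It classes ERG9 as tail-anchored (TA), with its segment at codon 422 of 444, and puts ERG1, ERG3, ERG5 and ERG25 in a class called Exception with no signal position. In the authors' deposited table a jump in SRP-bound footprints is marked at codon 83 for ERG11 and at codon 135 for ERG28, the second of these near the end of the protein. Between the first signal and the stop codon ERG28 has 124 codons, ERG2 217, and the other 3 TMD members 426 to 501.

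The 7 enzymes ERG11, ERG24, ERG25, ERG2, ERG3, ERG5 and ERG4 had footprint levels on membrane and SRP72-bound polysomes 36.5 to 198 times those in soluble polysomes. ERG28 was 51.6-fold higher in SRP72-bound polysomes but 2.54-fold higher on membranes than in soluble polysomes. ERG9 and ERG1 stood near the same level in all 3 fractions. Against soluble polysomes, 9 of the 10 genes were called higher on membrane polysomes, against 36.9% of the 5386 genes tested, and 8 were also past 2-fold, against 24.3%; none was called lower, against 28.8%. In SRP72-bound polysomes 8 were higher, against a background of 39.5%, and ERG1 was lower, against 38.8%. The median log2 fold change of the 10 was 5.55 on membranes and 6.11 in SRP72-bound polysomes, beside 0.01 and -0.03 over all genes. A call is an adjusted p below 0.05 in the quasi-likelihood test of edgeR, adjusted over all genes by the Benjamini-Hochberg method. This holds for every adjusted p below, and errors of fold changes are SE.

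The steps that follow lanosterol, the first sterol, include those of the demethylase ERG11, the reductase ERG24 and the methyl oxidase ERG25. The decarboxylase ERG26 and the keto reductase ERG27, outside this set and not called higher on membranes, are given below with the other late enzymes. ERG11 had 5063 and 5883 CPM in SRP72-bound polysomes, 4697 and 3733 CPM on membrane polysomes, and 49.1 and 47.7 CPM in soluble polysomes. Every SRP72-bound and membrane value was far above both soluble ones, and the SRP72-bound values also exceeded the membrane ones. Against soluble polysomes it was 87.1-fold higher on membranes (log2 6.45 ± 0.18, adjusted p = 1.03e-08) and 113-fold higher in SRP72-bound polysomes (log2 6.82 ± 0.18, adjusted p = 5.26e-09). ERG24 was the least abundant of the 7, with 600.3 and 739 CPM in SRP72-bound, 505 and 391 CPM in membrane and 8.82 and 9.26 CPM in soluble polysomes. Its log2 fold changes were 5.63 ± 0.18 on membranes and 6.21 ± 0.19 in SRP72-bound polysomes. ERG25 had 4520 and 4521 CPM in SRP72-bound, 4203 and 3270 CPM in membrane and 77.8 and 74.75 CPM in soluble polysomes, a log2 fold change of 5.61 ± 0.16 on membranes and 5.89 ± 0.16 in SRP72-bound polysomes. For ERG11, ERG24 and ERG25 soluble values stood apart from the others by 49.0-fold or more on average.

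The members that reshape the ring and side chain afterwards, ERG2, ERG3, ERG5 and ERG4, behaved alike. The methyltransferase ERG6, outside the 10, did not and is given below with the other late enzymes. ERG2 had 4641 and 3588 CPM in SRP72-bound, 1970 and 1571 CPM in membrane and 49.4 and 47.6 CPM in soluble polysomes, with log2 fold changes of 6.41 ± 0.20 in SRP72-bound and 5.19 ± 0.19 on membrane polysomes. ERG3 had 4502 and 4260 CPM in SRP72-bound, 3213 and 2838 CPM in membrane and 65.4 and 69.6 CPM in soluble polysomes, with log2 fold changes of 6.02 ± 0.13 and 5.49 ± 0.13 in the same order. The 3 fractions did not overlap for either gene, and the SRP72-bound fraction was the highest. ERG5 had 1448 and 1749 CPM in SRP72-bound, 1504 and 1404 CPM in membrane and 22.1 and 21.6 CPM in soluble polysomes, so its SRP72-bound and membrane values overlapped. ERG4 had 2297 and 2799 CPM in SRP72-bound, 1894 and 1476 CPM in membrane and 12.7 and 13.1 CPM in soluble polysomes. It had the largest log2 fold changes of the 10 genes, 7.63 ± 0.20 in SRP72-bound (198-fold) and 7.03 ± 0.19 in membrane polysomes (131-fold), above 99.6% of tested genes on membranes. The log2 fold changes of ERG5 were 6.19 ± 0.14 and 6.05 ± 0.14 in that order.

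**Figure D1:**
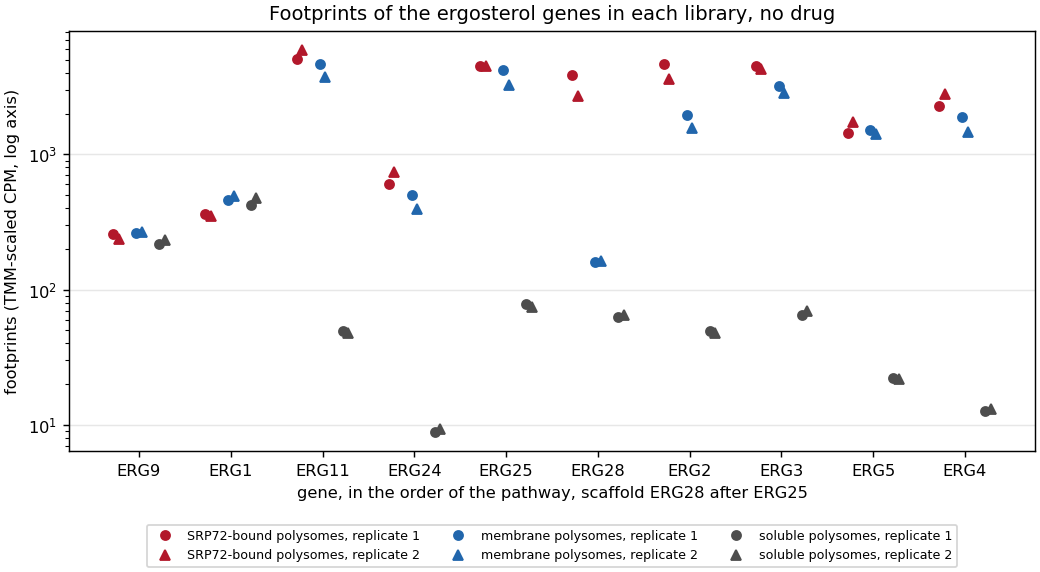
Footprints of each gene in CPM (log axis) in SRP72-bound, membrane and soluble polysomes without drug, 1 point per library. The 7 enzymes have soluble values of 8.82 to 77.8 CPM and SRP72-bound and membrane values of 391 CPM or more, ERG28 is high only in SRP72-bound polysomes, and ERG9 and ERG1 are nearly level.

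ERG28 had 3867 and 2719 CPM in SRP72-bound, 161 and 164 CPM in membrane and 63.1 and 64.4 CPM in soluble polysomes. The SRP72-bound libraries lay more than 10 times above the membrane ones, which in turn lay above the soluble ones without overlap. Against soluble polysomes it was 51.6-fold higher in SRP72-bound polysomes (log2 5.69 ± 0.19, adjusted p = 1.78e-08), and on membranes the log2 difference was 1.35 ± 0.16 (adjusted p = 0.000128). Set against membrane polysomes directly, SRP72-bound polysomes were 20.3-fold higher (log2 difference 4.34 ± 0.18, adjusted p = 7.64e-07), above 99.2% of all genes tested. Among genes the authors' deposited table gives a signal sequence or TMD and a stretch from signal to stop no longer than that of ERG28 (66 genes), the median log2 fold change was -0.27 on membranes and 1.63 in SRP72-bound polysomes against soluble ones. Where the stretch was longer (735 genes), the medians were 4.78 and 6.10. ERG28 was thus higher than the median of the short group in both comparisons with soluble polysomes. Its membrane value was below the lower quartile of the long group, 3.09. In SRP72-bound against membrane polysomes, 45 of the 66 short genes were called higher, with an upper quartile of 4.31, beside 1.58 in the long group. ERG28, at 4.34, lay close to the upper quartile of the short group, so it stood out less there than among all genes.

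The other genes differed less between SRP72-bound and membrane polysomes. Of the 10, 6 were higher in SRP72-bound polysomes, against 27.2% of all genes, and ERG1 was lower, against 34.6%. Calls of higher were common among genes of the same classes: 446 of the 544 TMD genes (median log2 difference 1.21) and 283 of the 586 Exception genes (0.35). The TMD members ERG4, ERG24 and ERG11 lay below the TMD median. After ERG28 came ERG2, 2.32-fold higher (log2 1.22 ± 0.16, adjusted p = 0.000336), then ERG4 (0.60 ± 0.15), ERG24 (0.58 ± 0.15), ERG3 (0.53 ± 0.11) and ERG11 (0.38 ± 0.14, adjusted p = 0.0437). Values of 0.27 ± 0.13 for ERG25, 0.14 ± 0.11 for ERG5 and -0.10 ± 0.09 for ERG9 did not pass the test. Without SRP72-bound replicate 2, only 3 genes were called higher, because ERG4, ERG24 and ERG11 were no longer called. The call of ERG11 was also lost without membrane replicate 2 and with the replicate number as a block (adjusted p = 0.122).

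ERG9 and ERG1, which make and oxidise squalene at the entry to the sterol branch, differed little in footprints between the fractions, though some small differences were called. ERG9 had 256 and 238 CPM in SRP72-bound, 263 and 267 CPM in membrane and 219 and 231 CPM in soluble polysomes. Its membrane value was 1.18-fold higher than its soluble one (log2 0.24 ± 0.09, adjusted p = 0.0398), a call that was lost in 7 of 11 alternatives, where the adjusted p reached 0.209, and the SRP72-bound difference of 0.14 ± 0.09 did not pass (adjusted p = 0.175). The 53 TA genes had medians of -0.45 on membranes and -0.55 in SRP72-bound polysomes, so ERG9 stood above both. ERG1 had 365 and 351 CPM in SRP72-bound, 460 and 493 CPM in membrane and 422 and 479 CPM in soluble polysomes. Membrane and soluble values of ERG1 overlapped (log2 0.08 ± 0.10, adjusted p = 0.493), and its SRP72-bound values were below all others. The log2 difference was -0.33 ± 0.10 against soluble (adjusted p = 0.0147) and -0.41 ± 0.10 against membrane polysomes (adjusted p = 0.00761). Neither call held when libraries were scaled on cytosolic genes, which gave -0.05 and -0.25. The first was lost without SRP72-bound replicate 2 or soluble replicate 2. The 586 genes of the Exception class had a median of 0.73 on membranes, and ERG3, ERG5 and ERG25 of that class lay at 5.49 or above.

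**Figure D2:**
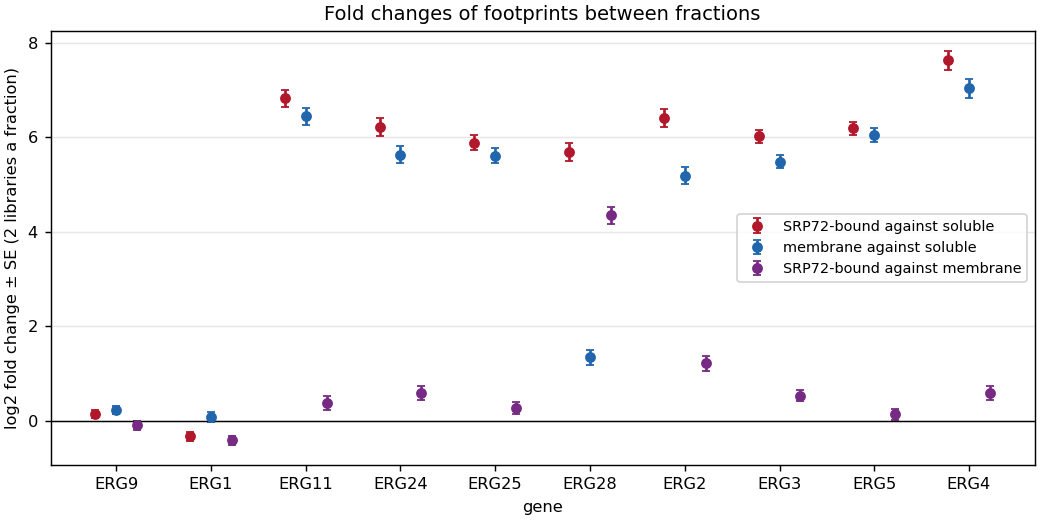
Log2 fold changes of footprints (± SE) between polysome fractions for each gene, from 2 libraries per fraction. Red and blue points lie between 5.19 and 7.63 for the 7 enzymes, ERG28 is split between 5.69 (SRP72-bound) and 1.35 (membrane), and ERG9 and ERG1 stay between -0.41 and 0.24 in all comparisons.

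Scaling shifts every value by a constant. When libraries were scaled on genes of the authors' Cytonuclear class, the median over all genes moved to 0.13 on membranes, 0.25 in SRP72-bound against soluble and 0.09 in SRP72-bound against membrane polysomes, beside 0.01, -0.03 and -0.08 with TMM. The share of calls that were higher moved to 68.3%, 66.7% and 62.2% with cytosolic scaling, beside 56.2%, 50.5% and 44.0% with TMM. Relative to shifts of that size the 7 enzymes and ERG28 kept their direction, and of the values against soluble polysomes, those of ERG9 and ERG1 are of a size with it.

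Per kb of coding length the order of the genes depended on the fraction. In SRP72-bound polysomes ERG28 was first at 7417 ± 1828 CPM per kb (SD, n = 2 for all these means), followed by ERG2 (6178 ± 1119), ERG25 (4876 ± 0.676), ERG3 (4001 ± 156), ERG11 (3442 ± 365), ERG4 (1796 ± 250), ERG5 (990.4 ± 132), ERG24 (510 ± 74.9), ERG1 (241 ± 6.83) and ERG9 (186 ± 9.32). ERG28 and ERG2 were not separated beyond their spread. On membrane polysomes ERG25 led at 4031 ± 712 CPM per kb, ERG3, ERG2 and ERG11 followed at 2763 ± 242, 2659 ± 424 and 2651 ± 429 without separation, and ERG28 (365 ± 4.61) stood beside ERG24 (341 ± 60.9) and ERG1 (320.4 ± 15.9). In soluble polysomes the order ran from ERG1 (302.9 ± 27.1) through ERG9 (169 ± 6.64) and ERG28 (144 ± 2.12) to ERG4 (9.07 ± 0.221) and ERG24 (6.88 ± 0.238). The entry enzymes were thus first in the soluble fraction and last in SRP72-bound polysomes, while on membranes ERG1 and ERG24 overlapped.

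The rest of the pathway also held genes far higher than in soluble polysomes and genes near level, with some in between. The upstream mevalonate and farnesyl list had 2 of 9 members higher on membranes, the HMG-CoA reductases HMG1 (6.92 ± 0.22) and HMG2 (6.79 ± 0.23), and 2 lower, ERG8 (-0.31 ± 0.07) and IDI1 (-0.25 ± 0.07). In SRP72-bound polysomes the same reductases were higher (7.38 and 6.89), 6 of the 9 were lower, and ERG12 was not called. Of the electron donors and heme partners, the cytochrome P450 reductase NCP1 was higher on membranes (5.75 ± 0.16) and in SRP72-bound polysomes (6.11 ± 0.16), while cytochrome b5, CYB5 (-0.52 and -0.48), and the heme-binding DAP1 (-0.43 and -0.84) were lower in both.

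Among the other late enzymes, ERG29 was higher on membranes (3.93 ± 0.11) and ERG26, the decarboxylase that acts beside ERG25, was lower (-0.23 ± 0.07), while ERG7, lanosterol synthase (0.13), ERG6, the methyltransferase (0.07), and ERG27, the keto reductase (-0.03), were not called. ERG27 was higher in SRP72-bound polysomes (1.49 ± 0.09), as were ERG29 (4.51) and ERG7 (0.36), and ERG6 (-0.44) and ERG26 (-0.71) were lower. All 7 genes of sterol ester metabolism and of the INSIG family were higher on membranes, from NSG2 (1.49) to TGL1 (6.25), and in SRP72-bound polysomes, from NSG2 (2.45) to YEH1 (7.16). Of 5 sterol transcription factors only HAP1 was past 2-fold on membranes (1.43 ± 0.12), and UPC2 (-0.02 ± 0.07) and ECM22 (-0.17 ± 0.08) were not called there. In SRP72-bound polysomes 4 of the 5 were higher, HAP1 (1.20 ± 0.12), UPC2 (0.45 ± 0.07), MOT3 (0.41 ± 0.08) and ECM22 (0.40 ± 0.09), and ROX1 (-0.12) was not called. Over the 9 mevalonate genes the median was -0.04 on membranes, over the 5 other late enzymes 0.07, and over the sterol ester and INSIG genes 5.33.

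**Figure D3:**
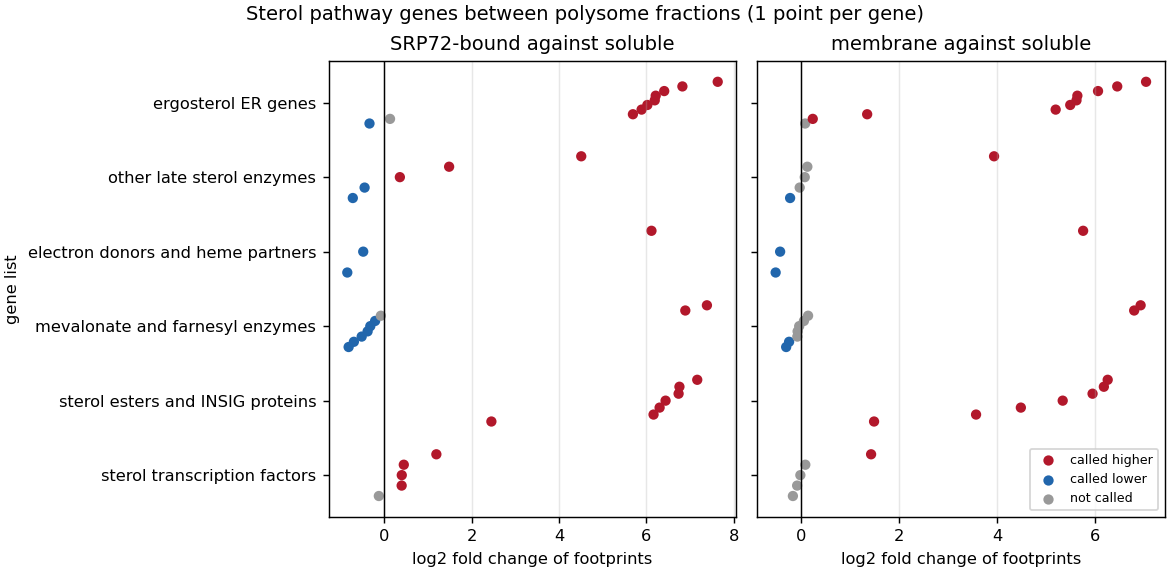
Log2 fold change of footprints in SRP72-bound (left) and membrane (right) against soluble polysomes, 1 point per gene, by list and coloured by call. Points fall into a group past 3.5, with HMG1, HMG2, NCP1, ERG29 and 6 of 7 sterol ester and INSIG genes, and a group near 0; in between lie NSG2 (2.45), ERG27 (1.49) and HAP1 (1.20) in SRP72-bound polysomes, and ERG28, NSG2 and HAP1 between 1 and 1.5 on membranes.

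In the CHX-treated culture, with 1 library per fraction and no test, 8 of the 10 genes were past 2-fold higher in membrane than in soluble ribosomes, against 19.7% of genes, and 9 in SRP72-bound against soluble polysomes, against 24.8%. ERG11 had 960.1 CPM in membrane ribosomes and 29.7 CPM in soluble ribosomes, and 3924 CPM in SRP72-bound and 25.0 CPM in soluble polysomes. Over the 7 enzymes the membrane log2 ratio ran from 3.41 (ERG2) to 5.02 (ERG11), and the SRP72-bound one from 6.40 (ERG3) to 7.42 (ERG4). ERG28 had 79.7 CPM in membrane and 20.2 CPM in soluble ribosomes, a log2 ratio of 1.98 (95% counting interval 1.83 to 2.13), and 451 CPM in SRP72-bound and 19.9 CPM in soluble polysomes, 4.50 (4.38 to 4.62). It was again the lowest of these 8 genes in both comparisons. ERG9 stood apart from the culture without drug in 1 respect: 493 CPM in SRP72-bound and 226 CPM in soluble polysomes, a log2 ratio of 1.13 (1.08 to 1.17). The 53 TA genes had a median of -0.71 there, with 3 of them past 2-fold higher and 15 past 2-fold lower. ERG1 was near 0 in both comparisons (-0.08 and 0.07). Membrane ribosomes with CHX were not separated into polysomes per the labels, so their values and those of membrane polysomes are given side by side only.

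In mRNA the 7 enzymes were again higher in the membrane fraction on average, with smaller ratios than in polysome footprints without drug. Footprint ratios of membrane ribosomes in the CHX culture (log2 3.41 to 5.02) were of a size with mRNA ratios in W303 at 25 °C (3.55 to 5.16). Over 5 conditions (BY4741 with CHX lysate, and prt1-1 and W303 at both temperatures), 7 of the 10 were higher in membrane than in soluble mRNA, against 16.8% of 5561 genes, and ERG1 was lower (-0.58 ± 0.17, adjusted p = 0.0484), against 7.1%. No condition has a second library per fraction, so this test sets the average against the spread between conditions, which are not replicates of one another. The log2 fold changes were 3.57 ± 0.83 for ERG11, 3.25 ± 0.74 for ERG24, 3.902 ± 0.83 for ERG25, 3.04 ± 0.84 for ERG2, 2.92 ± 0.66 for ERG3, 2.66 ± 0.56 for ERG5 and 3.55 ± 0.81 for ERG4, with adjusted p from 0.0263 to 0.0403. ERG28 (2.10 ± 0.67, adjusted p = 0.0576) and ERG9 (-0.43 ± 0.16, adjusted p = 0.0834) did not pass. Leaving out any 1 of BY4741 CHX lysate, W303 25 °C, W303 37 °C or prt1-1 25 °C left 0 of the 10 called, and over all genes 3 called higher in the first of these fits, 0 in the other 3, and 0 lower in any of them. The 1 condition that stood apart was prt1-1 at 37 °C. Without it, 8 genes were higher, against 22.5% of genes, and ERG1 and ERG9 were lower, against 20.9%; the 7 enzymes then lay between 3.19 ± 0.22 (ERG5) and 4.57 ± 0.31 (ERG25), and ERG28 at 2.70 ± 0.34 (adjusted p = 3.32e-05).

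In the 4 conditions other than prt1-1 at 37 °C and puromycin, the 7 enzymes and ERG28 were above 0 on the log2 scale, by amounts that differed between conditions. ERG11 had 2338 CPM in membrane and 208 CPM in soluble mRNA with CHX lysate, 3432 and 158 CPM in prt1-1 at 25 °C, 2331 and 112 CPM in W303 at 37 °C, and 4302 and 175 CPM in W303 at 25 °C, membrane first in each. The membrane level was more than 10 times the soluble one in every pair. ERG28 had 96.6 CPM in membrane and 45.3 CPM in soluble mRNA with CHX lysate, 409.9 and 42.5 CPM in prt1-1 at 25 °C, 445 and 46.4 CPM in W303 at 37 °C, and 601 and 72.2 CPM in W303 at 25 °C. Its log2 ratio was thus 1.09 in BY4741 and 3.06 to 3.27 in the other 3 conditions, which differ from BY4741 in strain and lysate treatment at once. For the 7 enzymes the ratio was 2.81 to 3.74 with CHX lysate, 2.75 to 4.72 in prt1-1 at 25 °C, 3.66 to 4.94 in W303 at 37 °C and 3.55 to 5.16 in W303 at 25 °C. ERG9 stayed between -0.50 and -0.36 and ERG1 between -0.89 and -0.48 in these conditions.

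In the puromycin lysate the ratio of membrane to soluble mRNA was lower than with CHX lysate for the 7 enzymes and ERG28. The log2 ratio differed by only -0.13 for ERG9 and by 0.36 for ERG1, from single pairs and with no test. ERG11 had 1440 CPM in membrane and 505 CPM in soluble mRNA, against 2338 and 208 CPM with CHX lysate, so its membrane level was lower and its soluble level higher. The 7 enzymes had log2 ratios of 0.86 (ERG5) to 1.58 (ERG4), ERG28 0.12 (0.03 to 0.22), ERG1 -0.13 and ERG9 -0.49. The 5 genes ERG11, ERG24, ERG25, ERG3 and ERG4 were past 2-fold, against 7.08% of genes. Tested as a change of the ratio against the 4 conditions named above, in a fit chosen after the values had been seen, 8 genes were lower with puromycin, against 9.84% of 5548 genes, from -2.33 ± 0.46 (ERG5) to -3.51 ± 0.63 (ERG25). Of those 4 conditions 3 are of other strains, so strain and lysate are mixed in this test. A single pair of libraries stands for puromycin, and the test takes its spread from the other conditions. Within BY4741, the log2 ratio with puromycin minus that with CHX lysate, from single pairs and with no test, was -2.34 for ERG25, -1.95 for ERG5 and -0.97 for ERG28. The call of ERG28 (-2.57 ± 0.71, adjusted p = 0.041) was lost without W303 37 °C or prt1-1 25 °C. ERG1 (0.50 ± 0.38) and ERG9 (-0.06 ± 0.35) did not pass. Of the secretory markers, 4 of 5 were lower as well, with a median of -2.07.

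The SRP72-bound mRNA held the same genes. In the CHX lysate the 7 enzymes had log2 ratios to soluble mRNA of 4.62 (ERG5) to 6.13 (ERG4) and ERG28 3.98 (3.89 to 4.06), while ERG9 (-0.89) and ERG1 (-1.48) were below 0. These 8 were past 2-fold higher, against 22.1% of genes, and ERG1 was past 2-fold lower, against 21.5%. In the puromycin lysate the 7 enzymes remained at 1.78 (ERG2) to 3.26 (ERG4), all past 2-fold, against 18.1% of genes, and ERG1 (-1.34) was again past 2-fold lower, against 22% of genes. ERG28 had 41.6 CPM in SRP72-bound and 60.6 CPM in soluble mRNA with puromycin, a log2 ratio of -0.54 (-0.68 to -0.41), against 714 and 45.3 CPM with CHX. It was thus the only one of these 8 genes at a higher level in soluble than in SRP72-bound mRNA after puromycin. Genes with a signal sequence or TMD had median ratios of 1.41 with puromycin and 3.99 with CHX, and the difference between these 2 conditions was not tested.

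**Figure D4:**
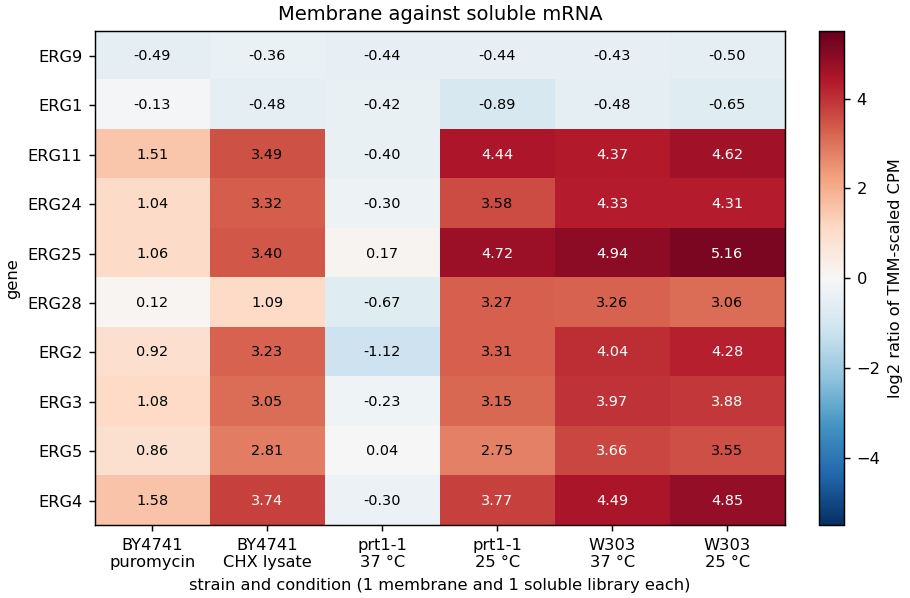
Log2 ratio of membrane to soluble mRNA (TMM-scaled CPM) for each gene and condition, 1 library per fraction. The 7 enzymes and ERG28 are between 1.09 and 5.16 in CHX lysate, W303 and prt1-1 at 25 °C, between 0.12 and 1.58 with puromycin, and between -1.12 and 0.17 in prt1-1 at 37 °C, while ERG9 and ERG1 stay between -0.89 and -0.13.

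In prt1-1 cells at 37 °C none of these 8 genes was past 2-fold higher in membrane than in soluble mRNA, against 7.14% of all genes. ERG11 had 626 CPM in membrane and 828 CPM in soluble mRNA, ERG2 131 and 285 CPM, and ERG28 46.1 and 73.5 CPM. Membrane levels were below soluble ones for 6 of the 8, and the log2 ratios ran from -1.12 (ERG2) to 0.17 (ERG25). Only ERG2 was past 2-fold, and lower, against 9.45% of genes. The change of the ratio against the 4 other conditions, tested in the fit chosen after the values had been seen, was called for these 8 genes, against 15% of 5548 genes. It was -4.83 ± 0.53 for ERG2 (adjusted p = 0.000149), -4.64 ± 0.53 for ERG11, -4.51 ± 0.53 for ERG4, -4.40 ± 0.65 for ERG25, -4.18 ± 0.49 for ERG24, -3.74 ± 0.50 for ERG3, -3.37 ± 0.73 for ERG28 (adjusted p = 0.00633) and -3.15 ± 0.47 for ERG5. ERG1 (0.20 ± 0.38, adjusted p = 0.775) and ERG9 (-0.01 ± 0.35, adjusted p = 0.992) did not pass. Within prt1-1, the log2 ratio at 37 °C minus that at 25 °C ran from -4.85 (ERG11) to -2.71 (ERG5) over the 8 genes, from single pairs and with no test. All 5 secretory markers were lower in the tested change too (median -3.56), as were HMG1 (-2.76), HMG2 (-3.00), NCP1 (-3.40), ERG29 (-3.55) and 6 of 7 sterol ester and INSIG genes. The membrane to soluble ratio itself had a median of 0.14 over the 5 secretory and 0.50 over the 6 cytosolic markers at 37 °C in prt1-1, with 0 of either past 2-fold, so the secretory markers do not set this membrane library apart from its soluble one. A single pair of libraries stands for this condition, and the test takes its spread from the others.

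After the shift to 37 °C, the fractions of prt1-1 cells differed from 25 °C in opposite directions. ERG11 stood in membrane mRNA at 626 CPM at 37 °C, against 3432 CPM at 25 °C, and in soluble mRNA at 828 CPM at 37 °C, against 158 CPM at 25 °C. Over the 7 enzymes the membrane log2 ratio of 37 °C to 25 °C ran from -4.16 (ERG2) to -0.97 (ERG5), and the soluble one from 0.27 (ERG2) to 2.39 (ERG11). ERG28 had values of -3.15 and 0.79 in membrane and soluble mRNA, ERG9 -0.17 in both, and ERG1 0.44 and -0.02. In membrane mRNA 7 of the 10 were past 2-fold lower, against 17.9% of genes, and in soluble mRNA 5 were past 2-fold higher, against 29.8%. Among genes with a signal sequence or TMD, 361 of 812 were past 2-fold lower in membrane mRNA. In soluble mRNA 517 of 838 such genes were past 2-fold higher, so neither direction is particular to the 10. The 10 genes made up 0.442% of membrane and 0.529% of soluble counts at 37 °C, against 1.495% and 0.179% at 25 °C. The same shift in W303 cells gave values below 0 for all 10 genes in both fractions, from -0.88 (ERG11) to -0.36 (ERG5) in membrane and from -0.85 (ERG3) to -0.02 (ERG4) in soluble mRNA. The interval of ERG4 in soluble mRNA, -0.23 to 0.19, spans 0. None of the 10 was past 2-fold, against 6.7% of genes higher and 4.4% lower in membrane mRNA, and 12.7% higher and 7.5% lower in soluble mRNA. With library totals in place of TMM, ERG4 and ERG24 were above 0 in soluble W303 mRNA (ERG4 with cytosolic scaling too). With library totals all 10 were above 0 in soluble prt1-1 mRNA, and ERG9 joined ERG1 above 0 in membrane prt1-1 mRNA.

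**Figure D5:**
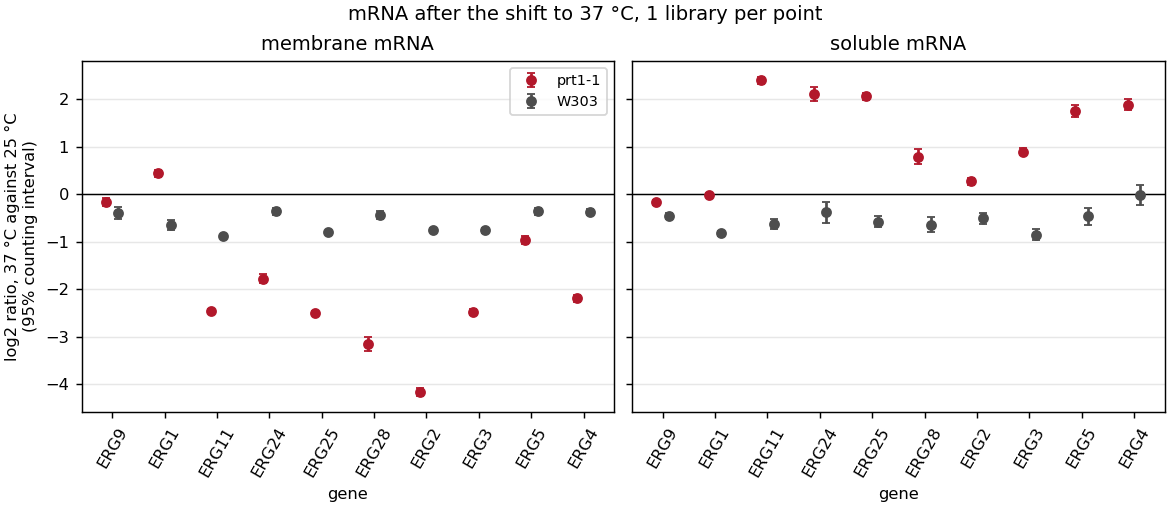
Log2 ratio of mRNA at 37 °C against 25 °C in membrane (left) and soluble (right) fractions, with 95% counting intervals, prt1-1 in red and W303 in grey, 1 library per temperature. In prt1-1 the 8 membrane-bound genes lie between -4.16 and -0.97 in membrane and between 0.27 and 2.39 in soluble mRNA, while all W303 values lie between -0.88 and -0.02.

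Footprints per mRNA, taken as footprint CPM without drug over mRNA CPM with CHX lysate and centred on the median gene of the fraction, differed most among the 10 genes in SRP72-bound and soluble material. For ERG28 the log2 value was 2.89 in SRP72-bound, 1.31 in membrane and 1.53 in soluble material, above 99.6%, 95.9% and 99.3% of genes. For ERG4 it was -1.31, 0.36 and -2.46, the last above only 5.53% of genes. On membranes ERG5 (2.13), ERG25 (1.56) and ERG11 (1.42) stood above ERG28, and ERG3 (1.20) and ERG2 (1.14) just below it. ERG1 was high in all fractions (1.87, 1.17 and 1.08). Both sides of each ratio come from different preparations and the mRNA from 1 library, so no test was made.

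Across the 24 libraries, with each gene's log2 CPM centred within footprints and within mRNA, the 7 enzymes correlated with the mean of the 10 at r = 0.969 (ERG4) to 0.994 (ERG24), ERG28 at 0.838, ERG9 at -0.088 and ERG1 at -0.492. Each of the 10 is itself part of that mean, so these r values are not independent of it. The 5 other genes most like that mean were YPQ1 (r = 0.991), GNP1 (0.990), ALG5 (0.990), SAM3 (0.990) and EMC3 (0.990). Such a likeness was common: 617 of 4840 genes had r above 0.9, and the libraries share their fractionation.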

How the data were processed

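Footprints of about 30 nucleotides and fragmented RNA were sequenced from fractions, and the read counts per open reading frame deposited by the authors were used as deposited. CASAVA, cutadapt 1.3, Bowtie, TopHat and build sacCer3 are named per the submitters' processing notes. The labels describe 30 samples. The 24 libraries with counts were used, and 6 monosome samples are not analysed here. By elimination, BY4741 RNA columns without a drug name were read as CHX lysate. Signal classes come from the authors' deposited table. Of 5904 open reading frames, 5902 matched RefSeq locus tags.

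Counts were fitted with edgeR 4.0.16 in R 4.3.3: TMM factors over all libraries of an assay, filterByExpr (count 10, total 15), its quasi-likelihood F test, and p-values adjusted by Benjamini-Hochberg, called at 0.05. The SE is the absolute log2 fold change over the square root of F. The footprint fit has 3 residual degrees of freedom. The mRNA fit has condition as a block and 4. The fit for the change of the ratio was added after the values were seen. Single libraries were compared by log2 ratios of scaled counts, with exact binomial 95% intervals that cover counting error only, for genes with 20 or more counts in the pair. Replicate footprint libraries correlated at 0.997 to 0.998, yet they differed by more than counting error. Their chi-square per degree of freedom was 15.28 in soluble, 38.18 in membrane and 89.55 in SRP72-bound polysomes. Alternatives included RLE factors, cytosolic scaling, DESeq2 1.42.0 and each replicate left out. Code was tested on simulated data. Every one of the 10 genes is named, the pathway lists were fixed by hand, and members and lists were chosen with earlier results of these data known.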

Additional observations from a re-analysis of the deposited data

Results flagged for a closer look

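Several values pointed one way in one strain or lysate and the opposite way in the other, beyond their counting intervals. Each rests on 1 library per group, and these opposite directions were not tested as such. In soluble mRNA, the log2 ratio of 37 °C to 25 °C was above 0 in prt1-1 and below 0 in W303 for ERG2 (0.27 against -0.51), ERG3 (0.89 against -0.85), ERG5 (1.75 against -0.47), ERG11 (2.39 against -0.64), ERG24 (2.1 against -0.38), ERG25 (2.06 against -0.57) and ERG28 (0.79 against -0.64). In membrane mRNA the same held for ERG1 alone of the 10 (0.44 in prt1-1 against -0.65 in W303).

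The ratio of membrane to soluble mRNA at 37 °C was below 0 in prt1-1 and above 0 in W303 for ERG2 (-1.12 against 4.04), ERG3 (-0.23 against 3.97), ERG4 (-0.3 against 4.49), ERG11 (-0.4 against 4.37), ERG24 (-0.3 against 4.33) and ERG28 (-0.67 against 3.26). The test of the change against 4 other conditions, given above, was chosen after these values had been seen and uses the same pair of prt1-1 libraries. It is therefore no independent support for these directions. SRP72-bound against soluble mRNA gave ERG28 -0.54 in the puromycin lysate against 3.98 in the CHX lysate, and that difference was not tested.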

How the results depend on the processing

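The 7 enzymes and ERG28 kept their direction and their calls against soluble polysomes under every alternative run on the footprints. In SRP72-bound against soluble polysomes the count called lower was 0 with cytosolic scaling, and 0 to 1 with a replicate left out (0 without SRP72-bound replicate 2 or soluble replicate 2). Against membrane polysomes it was 0 with cytosolic scaling, and without SRP72-bound replicate 2 only 4 were called, 3 of them higher (4 to 8 called and 3 to 7 higher over all replicates left out). The values of ERG1 on membranes without soluble replicate 1 (-0.0077, range over replicates left out -0.0077 to 0.1754), of ERG9 in SRP72-bound against membrane polysomes with cytosolic scaling (0.0634), and of ERG5 there without SRP72-bound replicate 2 (-0.006, range -0.006 to 0.2664) changed sign; none was called. In the mRNA fit the count called lower was 0 with RLE factors, cytosolic scaling or no condition term, and 2 with the puromycin lysate added or with DESeq2; leaving out a condition gave 0 to 10 called, 0 to 8 higher and 0 to 2 lower, with 0 called without any 1 of 4 conditions. ERG1 (-0.0207 with cytosolic scaling) and ERG9 (0.0141 without BY4741 CHX lysate, range -0.0324 to 0.0141) changed sign in the change for prt1-1 37 °C, also uncalled. Over all genes, cytosolic scaling gave 1318, 1130 and 89 called lower in SRP72-bound against soluble, SRP72-bound against membrane and the mRNA fit, beside 2088, 1863 and 395; the mRNA fit gave 60 without the condition term, 716 with DESeq2 and 1158 without prt1-1 37 °C. Without the other conditions it called 0 lower and 0 to 3 higher, beside 932. Cytosolic scaling moved the mRNA median to 0.11 from -0.08, and the share of calls that were higher to 92.4% from 70.2%. The cause was not tested for any of these. Of the single-library counts, puromycin membrane mRNA gave 3 past 2-fold with library totals and 0 past 4-fold, SRP72-bound puromycin mRNA 5 past 4-fold, prt1-1 37 °C 2 past 1.5-fold and 0 past 4-fold, soluble mRNA after the shift 4 past 1.5-fold in W303 and 3 past 4-fold in prt1-1, and membrane mRNA in W303 5 past 1.5-fold. With the replicate number as a block, 6 genes were called in SRP72-bound against membrane polysomes in place of 7, since ERG11 was lost, and no other call changed; with 2 pairs, deviations of same-numbered libraries correlated at 0.419 (soluble and membrane), 0.0693 and 0.0702 (each with SRP72-bound), and the labels do not say that numbers pair the libraries. The 2 libraries per fraction limit the smaller differences.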
